A study of Mus musculus with 12 samples.

Results

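The stearoyl-CoA desaturase genes Scd1, Scd2 and Scd3 lie side by side on mouse chromosome 19, and every chromatin immunoprecipitation (ChIP-seq) peak named for one of them was followed across 12 peak lists. A peak was taken when its nearest gene in the deposited annotation was Scd1, Scd2 or Scd3, at any distance from the transcription start site (TSS). The 12 lists held 66 such peaks of 76731 in all. Of these, 27 were among the 10124 peaks of the retinoid X receptor (RXR) and 39 among the 66607 peaks of acetylated histone H3 (H3K27ac, lysine 27), which marks promoters and enhancers in use. The 27 RXR peaks fell on 4 distinct sites, of 4812 distinct RXR regions outside repeats in the series, and the 39 H3K27ac peaks fell on 13 regions. No peak in any list was named for Scd4, the fourth gene of the cluster.

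All libraries came from wild type E14 mouse embryonic stem (ES) cells, grown without feeders on gelatin with serum and leukemia inhibitory factor, or from cells differentiated from them. ES cells were treated for 24 h at 1 µM with GW3965, a synthetic agonist of the liver X receptor (LXR), with LG268, a synthetic RXR agonist, or with all-trans retinoic acid (RA), the ligand of the retinoic acid receptor (RAR). The control is labelled only as such, and the protocol names dimethylsulfoxide as the vehicle. RXR and H3K27ac were each mapped once in the GW3965, LG268, RA and control cells, so no difference between these treatments has a replicate check. RXR was also mapped with 2 libraries at day 16 and 2 at day 8 after embryoid bodies were formed to make neural cells. In that protocol LIF is withdrawn and RA is added at 5 µM, so those cells share an RA exposure that the control ES cells lack. Nothing in the labels says that the replicates were separate cultures, so the spread between them can be technical. Chromatin was crosslinked in 2 steps, with disuccinimidyl glutarate and then formaldehyde.

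Stearoyl-CoA desaturases place the first double bond in saturated fatty acyl-CoA, which turns stearoyl-CoA into oleoyl-CoA and palmitoyl-CoA into palmitoleoyl-CoA. Scd1 is the main form in liver and fat, Scd2 is abundant in brain and in development, and Scd3 has been described in skin and the Harderian gland. Scd1 is a classic target of LXR, which binds DNA as a heterodimer with RXR and also drives Srebf1, the gene of the lipogenic factor SREBP-1c. RXR is likewise the partner of RAR and of the peroxisome proliferator-activated receptors. An LXR:RXR dimer can be switched on by a ligand of either partner, whereas RAR:RXR answers mainly to the ligand of RAR.

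The 4 RXR sites spanned 141.0 kb in mm10 coordinates, and none of their 27 peaks lay in a gene body or a promoter by the deposited annotation, which called all of them intergenic. The Scd3 site (chr19:44248080-44248546) lay 45.0 kb downstream of the Scd3 TSS and 4064 bp past the end of the RefSeq gene. It overlaps the right-hand edge of the RefSeq span of Pkd2l1 (44147637-44248328), a channel gene that spans the whole of Scd3. The strand of Pkd2l1 was not read, so whether this edge is a gene start was not tested. The name Scd3 records the nearest start site in the deposited annotation and says nothing of which gene the site acts on. The Scd2 far site (chr19:44266841-44267233) lay 26.6 kb upstream of the Scd2 TSS. The Scd2 near site (chr19:44284046-44284566) lay 9.42 kb upstream of it and 349 bp from the noncoding gene Gm41853. The Scd1 site (chr19:44388485-44388985) lay 19009 bp downstream of the Scd1 TSS and 5465 bp past the end of the gene, which runs on the opposite strand to Scd2 and Scd3. The Scd3 and far sites were 18.7 kb apart, the far and near sites 17.2 kb, and the near and Scd1 sites 104.0 kb. Scd4 lies within that last interval.

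**Figure D1:**
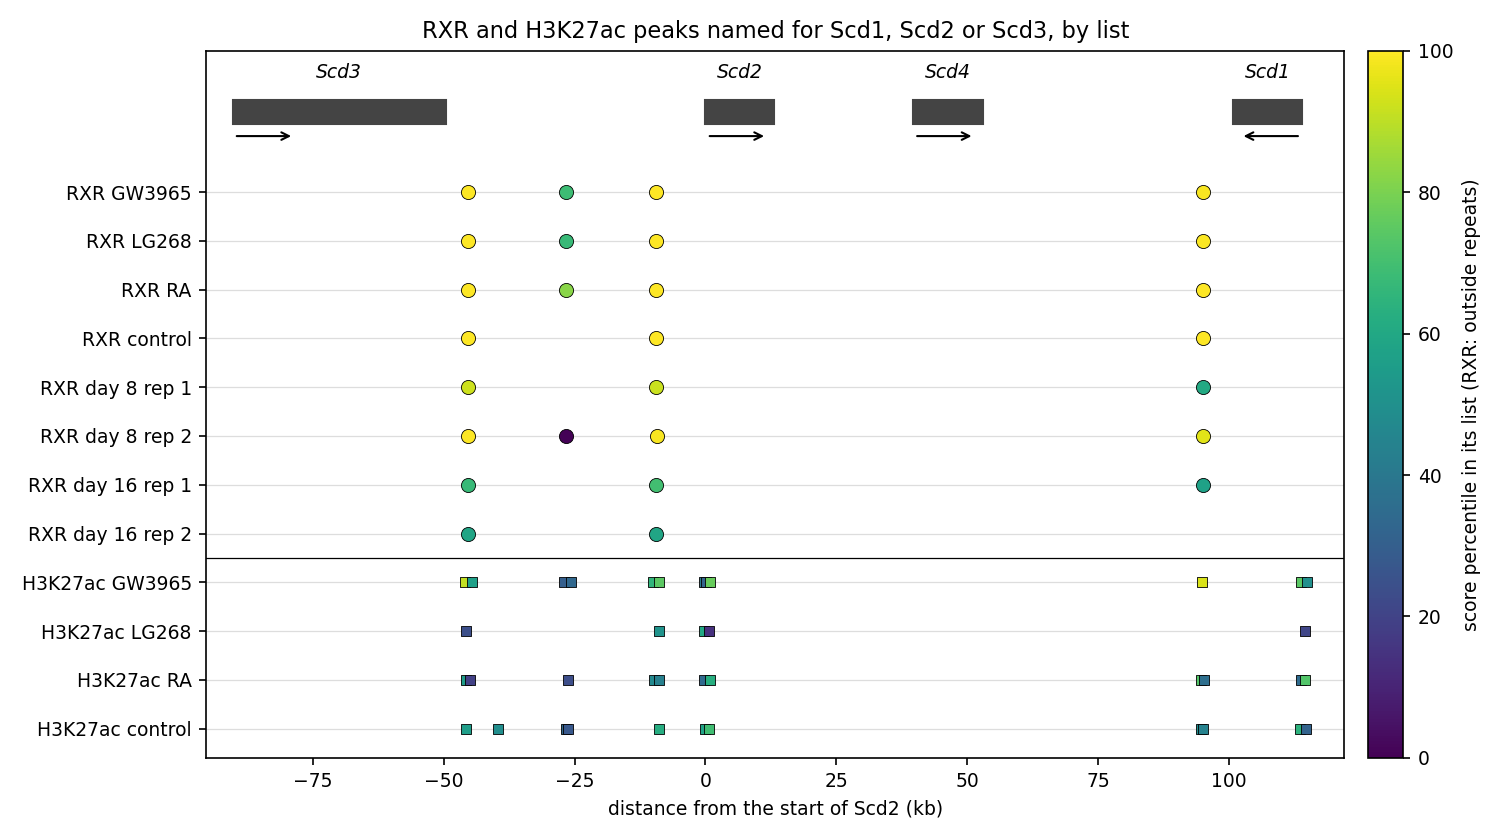
Peaks named for Scd1, Scd2 or Scd3 in each of the 8 RXR lists (circles) and 4 H3K27ac lists (squares), against distance from the start of Scd2 in kb, with the 4 genes of the cluster as bars and their direction of transcription as arrows. Colour gives the score percentile within the list, and the Scd3 and Scd2 near sites hold a circle in all 8 RXR rows while the Scd2 far site holds 4.

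The reference sequences available for these genes are RefSeq promoter windows, 250 bases before to 50 after a gene's start (GRCm38.p6). Of Scd1, Scd2 and Scd3 only Scd3 matched an entry. It is shown because the Scd3 site holds the highest RXR score of the cluster in 3 of the 4 ES lists and lies far from this start: the nearest RXR peak was 44.7 to 44.9 kb from the window in the 8 lists. The Fasn and Srebf1 windows are shown because they lie under the RXR regions whose scores followed the Scd sites most closely, as described further on. Fasn encodes fatty acid synthase. All 3 are written 5′ to 3′ on the gene's strand, and capitals mark GGTTACT and GGTCA with 3 bases between them, read on the opposite strand.
Scd3 (chr19:44203038-44203337, + strand): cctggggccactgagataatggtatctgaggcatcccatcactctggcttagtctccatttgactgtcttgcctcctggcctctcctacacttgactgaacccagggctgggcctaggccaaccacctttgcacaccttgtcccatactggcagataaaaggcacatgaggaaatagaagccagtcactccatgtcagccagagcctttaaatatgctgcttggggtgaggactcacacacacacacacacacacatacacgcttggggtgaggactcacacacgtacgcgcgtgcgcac
Fasn (chr11:120824498-120824797, - strand): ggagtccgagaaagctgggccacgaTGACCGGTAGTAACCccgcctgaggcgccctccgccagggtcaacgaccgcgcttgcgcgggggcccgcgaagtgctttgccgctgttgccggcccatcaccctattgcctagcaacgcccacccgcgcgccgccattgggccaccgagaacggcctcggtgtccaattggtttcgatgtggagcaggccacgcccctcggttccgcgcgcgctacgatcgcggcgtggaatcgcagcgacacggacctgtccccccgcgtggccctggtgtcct
Srebf1 (chr11:60210422-60210721, - strand): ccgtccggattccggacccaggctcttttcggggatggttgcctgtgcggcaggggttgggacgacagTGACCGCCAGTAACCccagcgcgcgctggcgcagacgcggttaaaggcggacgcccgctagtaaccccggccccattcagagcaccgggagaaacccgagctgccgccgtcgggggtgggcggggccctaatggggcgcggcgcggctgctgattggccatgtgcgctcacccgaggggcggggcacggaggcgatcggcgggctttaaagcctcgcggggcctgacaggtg

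The arrangement in capitals, a variant of the direct repeat with 4 bases between half-sites (DR4) that LXR:RXR binds, starts at base 26 of the Fasn window and base 69 of the Srebf1 window. It was chosen after the windows had been read, and 6 of all 32851 windows hold it on either strand (0.0183%). Those 6 windows belong to 5 genes, and 4 of the windows lay under an RXR peak: Srebf1 and Fasn in 8 lists each, Abca1 (a cholesterol exporter) in 7 and Acsl3 (a fatty acyl-CoA synthetase) in 6. The Srebf1 and Fasn windows had been picked for lying under RXR regions, so their peaks were fixed in advance. The share of all windows under an RXR peak was not computed, so the count of 4 has no background. The Scd3 window does not hold it. The windows were also searched on both strands, exactly, for direct repeats of the half-sites AGGTCA or GGGTCA, or of the half-sites AGTTCA or GGTTCA, in any pairing, with 0 to 5 bases between. The DR4 spacing was found in 0.0822% of windows and any of these spacings in 0.907%, and the Scd3 window held none, nor one with 1 mismatch in a half-site (11.3% of windows). The Scd3 window also held no CCAAT (37.4% of windows), no TATAAA (13.6%), no GGGCGG (35.7%) and no sterol regulatory element TCACNCCAC (1.24%). The sequence under the Scd sites themselves was not used here.

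In ES cells RXR peaks at the Scd3, Scd2 near and Scd1 sites stood at the very top of the peaks outside repeats in every treatment. Scores are the authors' values, their scale between lists is not stated, and the depth of the libraries is unknown, so they are read within a list. Ranks are given among peaks outside repeats, which leaves out simple repeats, satellites, low-complexity and rRNA elements and the mitochondrial genome. These fill 8.28% to 16.5% of the ES and day 8 lists and 50.6% and 49.9% of the day 16 lists. The 12 peaks of these 3 sites in the 4 ES lists all ranked between 1 and 9. With repeats counted, they ranked 6 to 14 at the Scd3 site, 13 to 15 at the Scd2 near site and 17 to 41 at the Scd1 site.

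The Scd3 site had a score of 53.61 with GW3965, 103.67 with LG268, 87.37 with RA and 85.91 in control cells. Its ranks were 1 of 852 with GW3965, 1 of 1916 with LG268, 3 of 1796 with RA and 1 of 936 in control cells. It was the highest peak outside repeats in 3 of the 4 ES lists and was passed only with RA. The score was 8.66 times the list's median outside repeats with GW3965, 16.2 times with LG268, 12.7 times with RA and 11.9 times in control cells.

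The Scd2 near site had a score of 39.68 with GW3965, 95.42 with LG268, 91.76 with RA and 76.75 in control cells. Its ranks were 3 with GW3965, 2 with LG268, 2 with RA and 2 in control cells. The Scd2 near site thus stood directly behind the Scd3 site in the LG268 and control lists and ahead of it in the RA list.

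The Scd1 site had a score of 30.86 with GW3965, 52.74 with LG268, 66.77 with RA and 61.53 in control cells. Its ranks were 8 with GW3965, 9 with LG268, 6 with RA and 4 in control cells. Within each ES list the Scd1 score was below the Scd2 near score, at 0.778 of it with GW3965, 0.553 with LG268, 0.728 with RA and 0.802 in control cells. The LG268 list showed the widest gap between these sites among the ES lists.

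The Scd2 far site had a lower RXR score than the other Scd sites in every list where it was called. It had a score of 7.65 with GW3965, 8.2 with LG268 and 12.24 with RA, and no peak was called there in control cells. Its ranks outside repeats were 265 with GW3965, 628 with LG268 and 319 with RA. The far site was thus called with each of the 3 ligands and not in the control, a pattern shared by 40 of the 4812 RXR regions outside repeats (0.831%). Its scores lay above the lists' medians, at 1.24 times with GW3965, 1.28 times with LG268 and 1.77 times with RA. The lowest score of any peak was 2.25 with GW3965, 1.36 with LG268, 1.45 with RA and 2.15 in control cells. A control peak under the authors' threshold cannot be told apart from no peak. In bulk cells, fewer cells with a bound site and weaker binding in each cell cannot be told apart either.

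**Figure D2:**
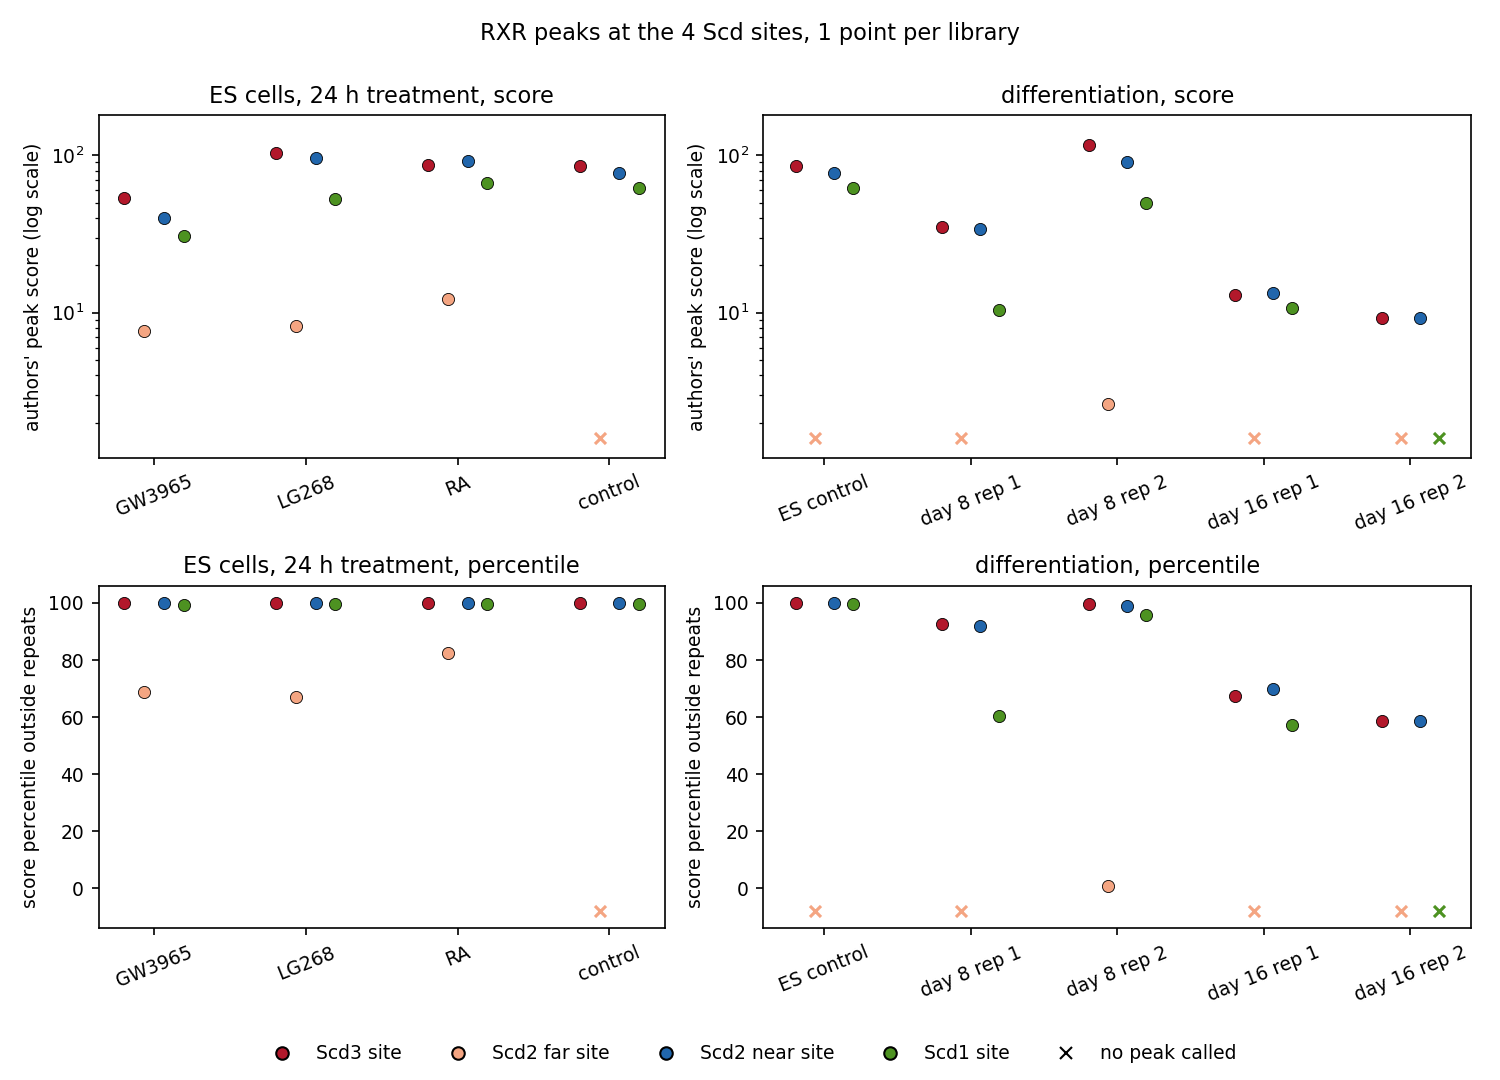
The authors' RXR peak score (upper row, log axis) and its percentile among peaks outside repeats (lower row) for the 4 Scd sites, 1 point per library, with crosses at the foot where no peak was called. The left panels give the ES treatments and the right panels control ES cells, day 8 and day 16. In the ES lists the Scd3, Scd2 near and Scd1 sites all sit at 99.2 or higher, and at day 16 every called site sits between 57.3 and 69.8.

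The 3 RXR sites present in control cells were all found again with each ligand and at day 8. The count over all control peaks outside repeats gives the background. Of 936 such peaks, an overlapping peak was found for 16.3% with GW3965, 69.0% with LG268 and 68.3% with RA. The share was 25.0% and 39.0% in the day 8 libraries (replicates 1 and 2) and 11.1% and 8.76% in the day 16 libraries (replicates 1 and 2). All 3 Scd sites were found in each of these lists except day 16 replicate 2, where the Scd1 site was missing. Among the ES lists GW3965 is the one in which most control peaks were not called. The Scd3, Scd2 near and Scd1 peaks were called there at ranks 1, 3 and 8. In control cells these peaks ranked 1, 2 and 4. The shares above cover control peaks of any score, and none was computed for peaks of similar rank, so they are not a matched background. In all, 27 of the 32 pairs of site and RXR list had a peak. The Scd3 and Scd2 near sites had one in all 8 lists, as did 23 of the 4812 regions outside repeats (0.478%).

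Relative to control cells, the RXR scores of these 3 sites differed by less than 2-fold with each ligand. The score over the list's median was divided by the same value in control cells, for every region outside repeats with a peak in both lists. With GW3965 this ratio was 0.726 at the Scd3 site, 0.602 at the Scd2 near site and 0.584 at the Scd1 site, against a median of 0.681 over 152 regions. With LG268 it was 1.36 at the Scd3 site, 1.40 at the Scd2 near site and 0.966 at the Scd1 site, against a median of 1.34 over 631 regions. With RA it was 1.06 at the Scd3 site, 1.25 at the Scd2 near site and 1.13 at the Scd1 site, against a median of 1.28 over 622 regions. None of the 3 sites reached 2 times the control or fell to 0.5 of it with any ligand. Among all shared regions, 7.89% reached 2 times the control with GW3965, 20.0% with LG268 and 18.2% with RA. Ratios of 0.5 or less were found for 31.6% with GW3965, 3.01% with LG268 and 4.50% with RA.

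The position of the RXR peaks was close between lists and their width was not. Peak centres at the Scd3 site lay within 36.5 bp of each other over 8 lists, those of the Scd1 site within 47.5 bp over 7 lists, and those of the Scd2 far site within 24.5 bp over 4 lists. The Scd2 near site had the widest spread, 90.5 bp over 8 lists. The 23 regions called in all 8 lists had a median spread of 68.0 bp, with the Scd3 site below it and the Scd2 near site above it. The Scd1 and Scd2 far sites were called in fewer lists, so their spreads cannot be set against that median. Peak widths ran between 199 and 454 bp at the Scd3 site, 147 and 393 bp at the Scd2 far site, 215 and 491 bp at the Scd2 near site and 216 and 489 bp at the Scd1 site. In the ES lists the peaks at the Scd3, Scd2 near and Scd1 sites were broad for their list, at width percentiles of 97.4 to 99.8 outside repeats. The deposited annotation places the Scd3 site and both Scd2 sites in CpG-rich sequence (CpG islands) and the Scd1 site in plain intergenic sequence. Of the 936 control RXR peaks outside repeats, 6.20% carry the CpG label. The label applied to 2 of the 3 Scd peaks of control cells.

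During differentiation the 3 Scd sites of control cells were still called in most libraries but stood lower in the lists. The Scd3 site had a score of 85.91 in control ES cells, 35.14 and 116.81 at day 8, and 12.9 and 9.2 at day 16. Its rank outside repeats was 1 of 936 in control ES cells, 72 of 964 and 7 of 1846 at day 8, and 68 of 212 and 83 of 205 at day 16. The score was 11.9 times the list's median in control ES cells, 4.01 and 12.3 times at day 8, and 1.35 and 1.27 times at day 16. Both day 16 values were thus below both day 8 values, and the day 8 libraries differed from each other about as widely as day 8 replicate 1 differed from day 16.

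The Scd2 near site followed the same course. Its score was 76.75 in control ES cells, 33.99 and 91.12 at day 8, and 13.31 and 9.2 at day 16. Its percentile outside repeats was 99.9 in control ES cells, 92.0 and 98.9 at day 8, and 69.8 and 58.8 at day 16. The Scd2 near peak was within 0.952 to 1.35 times of the Scd3 score in all 8 lists, counted as Scd3 over Scd2 near.

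The Scd1 site had the lowest score of these 3 in both day 8 libraries, as in every other list where it was called. Its score was 61.53 in control ES cells, 10.47 and 49.52 at day 8, and 10.64 in day 16 replicate 1, with no peak in day 16 replicate 2. Its share of the Scd2 near score was 0.802 in control ES cells, 0.308 and 0.543 at day 8, and 0.799 in day 16 replicate 1. Both day 8 ratios were thus the lowest, although 0.543 lay close to the 0.553 of ES cells with LG268. The Scd2 far site had a peak only in day 8 replicate 2, with a score of 2.63 and a rank of 1830 of 1846, near the foot of that list.

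Counted per library, day 16 had 3 and 2 Scd sites, against 3 and 4 at day 8. The means were 2.5 ± 0.707 sites at day 16 and 3.5 ± 0.707 at day 8 (SD, n = 2 each). The difference was -1.0 site, with p = 0.667 by a two-sided exact permutation test, in a design whose smallest possible p is 0.333. The day 16 lists are also the shortest, at 429 and 409 peaks against 1154 and 2044 at day 8, and list length was not separated from the day.

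H3K27ac was found beside the Scd RXR sites, more often on their flanks than under their centres. Over all ES RXR peaks outside repeats, 38.3% had an H3K27ac peak within 1 kb and 16.2% had their centre inside one. The H3K27ac peaks named for Scd genes were 12 of 17759 with GW3965, 5 of 12472 with LG268, 11 of 14958 with RA and 11 of 21418 in control cells. Of the 13 regions, 5 had a peak in all 4 lists, and 8 lay within 1 kb of the centre of an RXR site. Neither share was computed over all H3K27ac regions, so these 2 counts have no background. The labelled cell type was checked at promoters: of 8 ES cell markers, 4 had an H3K27ac peak within 1 kb of the TSS with GW3965, 2 with LG268, 0 with RA and 2 in control cells. Over all 21900 protein-coding RefSeq genes the share with such a peak was 41.9% with GW3965, 35.8% with LG268, 39.6% with RA and 45.9% in control cells. Of the ES markers, Pou5f1 had one with GW3965 and in control cells, and Sox2 had one in every list but that of RA. Of 6 neural markers 3 had one with GW3965, 1 with LG268, 2 with RA and 4 in control cells. Of 3 endoderm markers 1, Sox17, had one with RA and none elsewhere. None of 4 liver and fat markers had one in any list. In control cells 2 of 8 ES markers had one, against 4 of 6 neural markers, so this check did not bear out the labelled cell type. The part of this variation in the Scd values was not tested.

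At the Scd3 site an H3K27ac peak lay on the Scd3 side of the RXR peak in all 4 lists. Its score was 25.17 with GW3965, 4.84 with LG268, 8.53 with RA and 9.3 in control cells. This put it at the 91.0 percentile of its list with GW3965, the 24.0 with LG268, the 55.2 with RA and the 55.5 in control cells. The GW3965 library stood above the other 3. A further peak on the Scd2 side was called with GW3965 (9.37) and RA (4.62) and not with LG268 or in control cells. The RXR centre fell in the gap between them: with GW3965 the flanking peaks ended 139 bp before it and began 340 bp after it, and with RA these distances were 210 and 152 bp.

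At the Scd1 site the GW3965 library again held the highest H3K27ac peak. There it was 1 broad peak of 1154 bp with a score of 29.98, rank 996 of 17759 and percentile 94.4. With RA there were 2 peaks, the higher with a score of 12.26 at percentile 73.3. In control cells there were also 2, the higher with a score of 7.98 at percentile 48.9. With LG268 no H3K27ac peak was called there. The Scd1 site is the one RXR site whose centre lay inside an H3K27ac peak of its own treatment, with GW3965, RA and in control cells.

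Expressed as score over the list's median, the Scd1 site was 3.67 with GW3965, against 0.971 in control cells, which is 3.78 times the control. Of the 14216 H3K27ac regions with a peak in both lists, 10 had a ratio at least as high (0.0703%), the Scd1 region included. The region beside the Scd3 site had 3.08 with GW3965, against 1.13 in control cells, a ratio of 2.72 that 60 regions reached (0.422%). These were 2 of the 8 shared Scd regions at 2 times the control or more, against 2.48% of all shared regions. None was at 0.5 or less, against 9.51% of all. The 2-fold comparison was chosen after the values had been seen. The median ratio over all shared regions was 0.861, and over the 8 Scd regions it was 1.30. At the Scd1 site the ratio depends on peak shape: with the scores of all peaks in the region summed, it was 1.98.

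**Figure D3:**
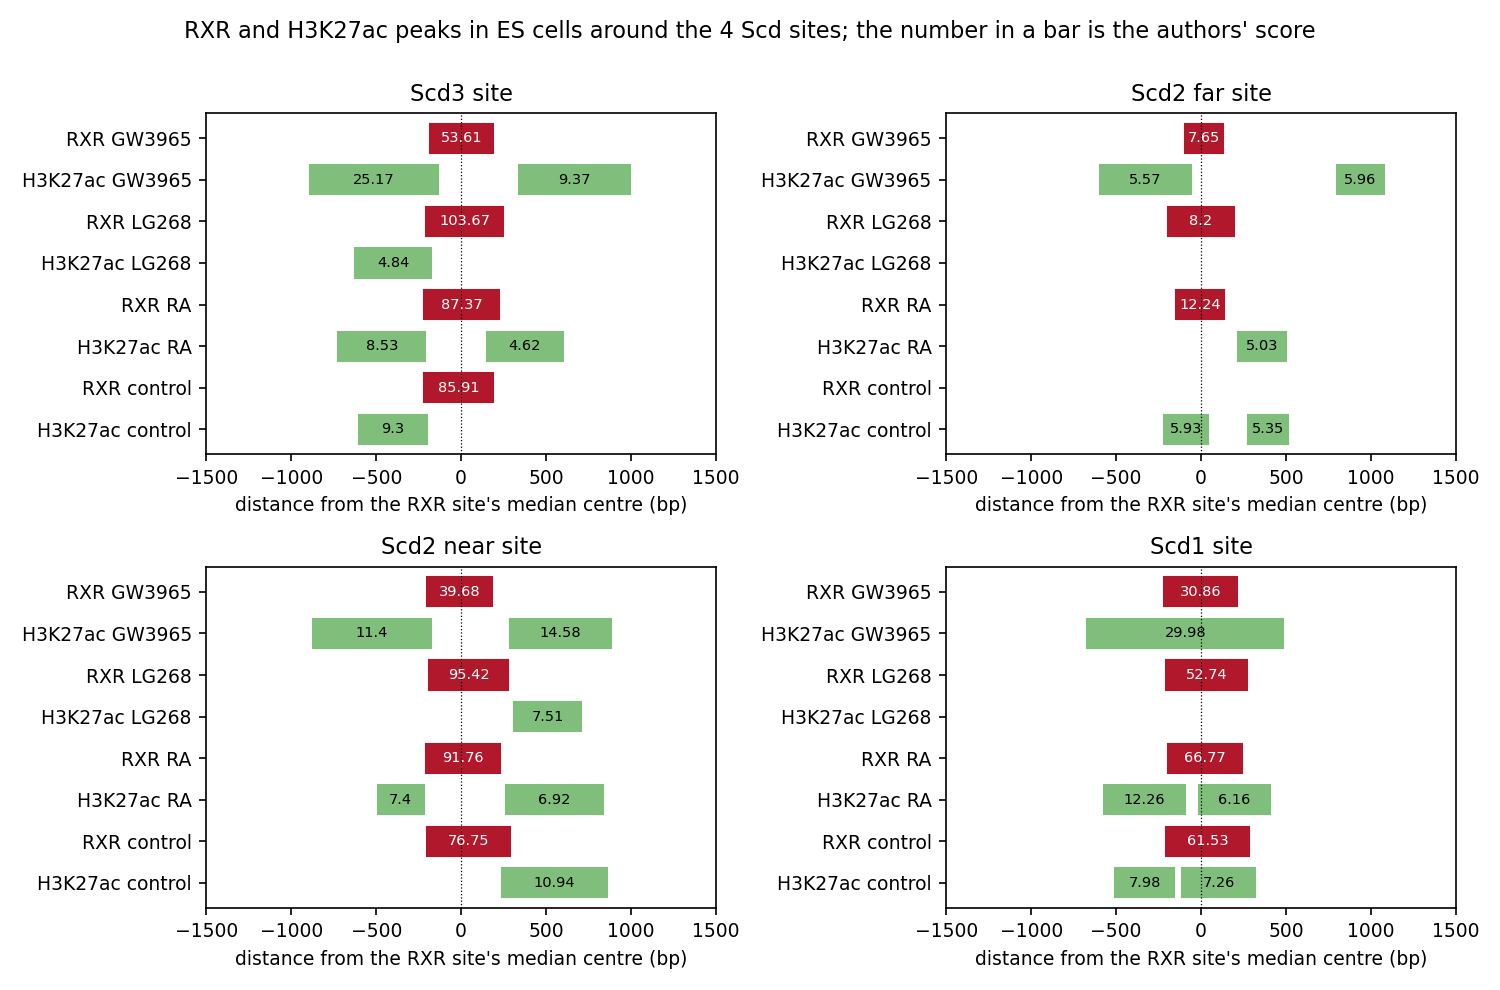
RXR peaks (red) and H3K27ac peaks (green) of ES cells within 1500 bp of the median RXR centre of each Scd site, by treatment, with the authors' score in each bar. The H3K27ac peaks lie on the flanks of the Scd3 and Scd2 near sites, and a single broad peak of 29.98 covers the Scd1 site with GW3965.

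With GW3965 the Scd2 regions stayed closer to the control. On the Scd2 side of the near site, an H3K27ac peak had a score of 14.58 with GW3965, 7.51 with LG268, 6.92 with RA and 10.94 in control cells. On the other side of that site a peak was called with GW3965 (11.4) and RA (7.4) and not with LG268 or in control cells. The ratio to the control was 1.34 with GW3965, 0.771 with LG268 and 0.666 with RA for the region present in all 4 lists. At the Scd2 start itself the highest score was 6.95 with GW3965, 8.72 with LG268, 5.96 with RA and 9.91 in control cells. The GW3965 value is the higher of 2 peaks, the other with a score of 5.77. Its ratio to the control was 0.706 by the highest peak and 1.29 with the peaks summed, so its direction depends on that choice. In the next region, annotated as exon 1 of Scd2 with LG268 and as intron 1 in the other lists, the score was 15.36 with GW3965, 4.0 with LG268, 9.85 with RA and 13.17 in control cells. The LG268 value there, 0.341 of the control after division by the list medians, was the one Scd region at 0.5 or less with that ligand. The background at 0.5 or less with LG268 was 27.1% of 10871 shared regions, and 0.855% reached 2 times the control, none of them Scd regions.

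At the Scd1 gene, exon 1 had an H3K27ac score of 14.42 with GW3965, 5.99 with RA and 11.53 in control cells, with no peak with LG268. The region upstream of the Scd1 TSS had 8.15 with GW3965, 4.57 with LG268, 12.17 with RA and 5.67 in control cells. With RA this upstream region was 2.26 times the control after division by the list medians, while exon 1 was 0.547 times, so the neighbouring regions went opposite ways. The upstream region was the one Scd region of 8 at 2 times the control or more with RA, against 1.48% of 12554 shared regions. None of the 8 was at 0.5 or less with RA, against 18.7% of all. The RA ratio at the Scd1 RXR site was 1.62, and it was 1.27 with the peaks of the region summed.

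**Figure D4:**
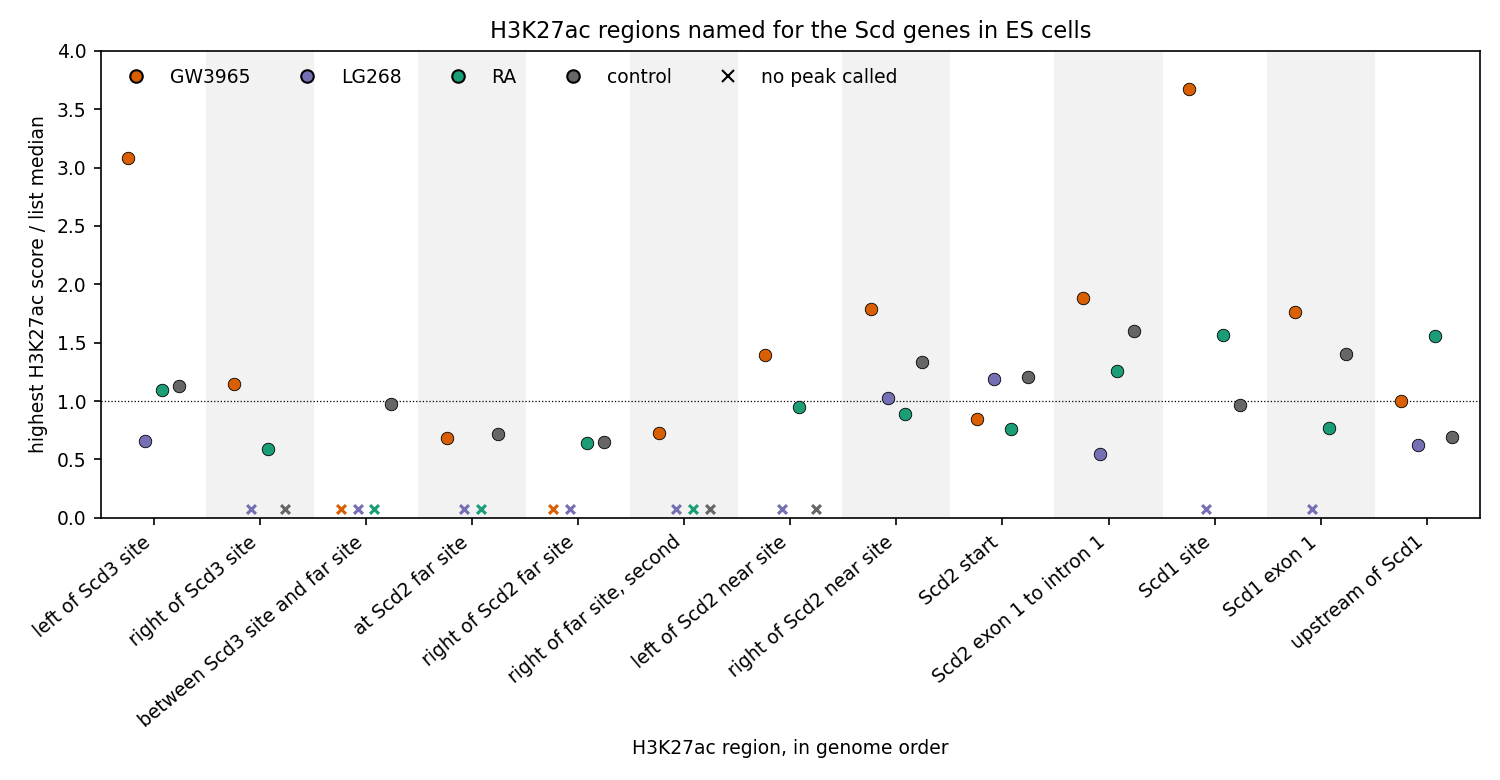
Highest H3K27ac score in each of the 13 Scd regions divided by the median score of its list, in genome order, for GW3965, LG268, RA and control ES cells, with crosses where no peak was called. With GW3965 the regions at the Scd3 and Scd1 sites stand at 3.08 and 3.67, and no other value passes 1.88.

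RXR and H3K27ac peaks of the same treatment overlapped by at least 1 bp at 4 of 4 Scd RXR sites with GW3965, 1 of 4 with LG268, 2 of 4 with RA and 3 of 3 in control cells. Over all RXR peaks outside repeats the share was 13.5% with GW3965, 23.3% with LG268, 25.9% with RA and 29.6% in control cells. The one overlap with LG268 was at the Scd3 site, over 28 bp. Other overlaps away from the Scd1 site were also short: 27 to 48 bp with GW3965, 72 bp with RA, and 18 and 48 bp in control cells. At the Scd1 site they were 253 to 430 bp. The Scd3, Scd2 near and Scd1 peaks were broad for their lists, and the background shares were not matched for width. An H3K27ac peak lay within 1 kb at 13 of the 15 pairs of Scd site and ES list, against 38.3% of the 5500 RXR peaks outside repeats in the 4 ES lists. The centre of the RXR peak lay inside one at 3 of 15, against 16.2% of those 5500 peaks, so on this measure the Scd sites lay near the background. The LG268 H3K27ac list is the shortest of the 4. With every H3K27ac list cut to its 12472 highest peaks, the 4 counts were unchanged. The GW3965 peak that touches the far site was only just kept, at rank 12464.

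The measure of likeness between RXR regions was the mean absolute difference in score percentile outside repeats over the 8 lists, with 0 where there was no peak. By this measure the Scd3 and Scd2 near sites were each other's nearest region, 0.511 percentile points apart. The next for both was the region at the Fasn promoter, at 4.12 from the Scd3 site and 3.83 from the Scd2 near site. Regions named for Plekhb1, Ncoa3 (a nuclear receptor coactivator) and Rarb (the retinoic acid receptor beta) followed. For the Scd1 site the nearest region was the Srebf1 promoter, 4.96 points away. Trp53inp2, Cpt1a (the carnitine palmitoyltransferase that admits fatty acids to mitochondria), Abcg1 (a sterol exporter) and Cfl2 came after it, at 7.03 to 10.9 points. The far site lay closest to regions named for Uri1, Ier2, Slc38a7, Tyw5 and Abl1. All of these regions were read from the same 8 libraries.

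The wider pathway was read from a list of 38 genes of fatty acid synthesis, elongation, desaturation and LXR response. An RXR peak named for the gene and within 100 kb of its TSS was found for 10 of them with GW3965, 8 with LG268, 10 with RA and 11 in control cells. Of all 21900 protein-coding RefSeq genes, such a peak was found for 3.01% with GW3965, 6.41% with LG268, 6.16% with RA and 3.57% in control cells. The counts for the list were 4 and 3 in the day 16 libraries, where the share of all genes was 0.941% and 0.849%, against 6 and 8 at day 8, where it was 2.66% and 5.06%. Of the 38, 6 had a peak in all 4 ES lists: Srebf1, Fasn, Elovl5 (a fatty acid elongase), Acsl3, Abca1 and Abcg1. Of all genes 0.799% did. Srebf1, Fasn and Abca1 had one in all 8 lists, as did 0.292% of all genes. The RXR ranks outside repeats at Fasn were 2 with GW3965, 4 with LG268, 4 with RA and 5 in control cells, among the Scd sites. Those at Srebf1 were 5 with GW3965, 5 with LG268, 14 with RA and 6 in control cells. Abcg1 also stood among them, at 7 with GW3965, 10 with LG268, 11 with RA and 3 in control cells. Elovl5 had ranks of 15 with GW3965, 3 with LG268, 16 with RA and 309 in control cells.

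The remaining genes of the list with an ES RXR peak stood lower or were called in fewer treatments. Lpcat3, a lysophospholipid acyltransferase, had ranks of 334 with LG268, 727 with RA and 162 in control cells. Gpam, which starts glycerolipid synthesis, had ranks of 377 with LG268, 1366 with RA and 359 in control cells. Lpl, the lipoprotein lipase, had ranks of 681 with GW3965, 408 with RA and 918 in control cells. The others were called with GW3965 alone: Mylip (rank 69), Elovl6 (245) and Insig1 (313). Thrsp was called in control cells alone, at rank 909.

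The other desaturase genes differed from the Scd genes. Fads1 and Fads2, which encode the delta-5 and delta-6 desaturases of polyunsaturated fatty acids, had 1 RXR peak named for each. The Fads1 peak was called with RA at rank 1254 and the Fads2 peak in control cells at rank 235. Fads3, Fads6 and Degs1 (a sphingolipid desaturase) had none named for them within 100 kb in any of the 8 lists. Peaks named for a neighbouring gene were not counted.

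The H3K27ac ratios of the same 38 genes give a further reading beside those of the Scd genes. With GW3965, 2 of 39 shared regions of the list were at 2 times the control or more and 5 at 0.5 or less. The 2 were at Abca1, with a score of 28.02 with GW3965, against 10.91 in control cells (ratio 2.58), and at Elovl1. At Elovl1 a neighbouring region went the other way, at 2.68 and 0.356 times the control. With LG268, 0 of 27 regions were at 2 times or more and 9 at 0.5 or less, and with RA 1 of 31 and 9. The one with RA was at Gpam, at 2.40 times the control, where the adjoining region was at 0.364 times. Over all shared regions, 2.48% were at 2 times or more and 9.51% at 0.5 or less with GW3965. These shares were 0.855% and 27.1% with LG268, and 1.48% and 18.7% with RA. Median ratios of the list were 0.807 with GW3965, 0.564 with LG268 and 0.71 with RA. They lay near those of all shared regions, 0.861, 0.647 and 0.72.

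**Figure D5:**
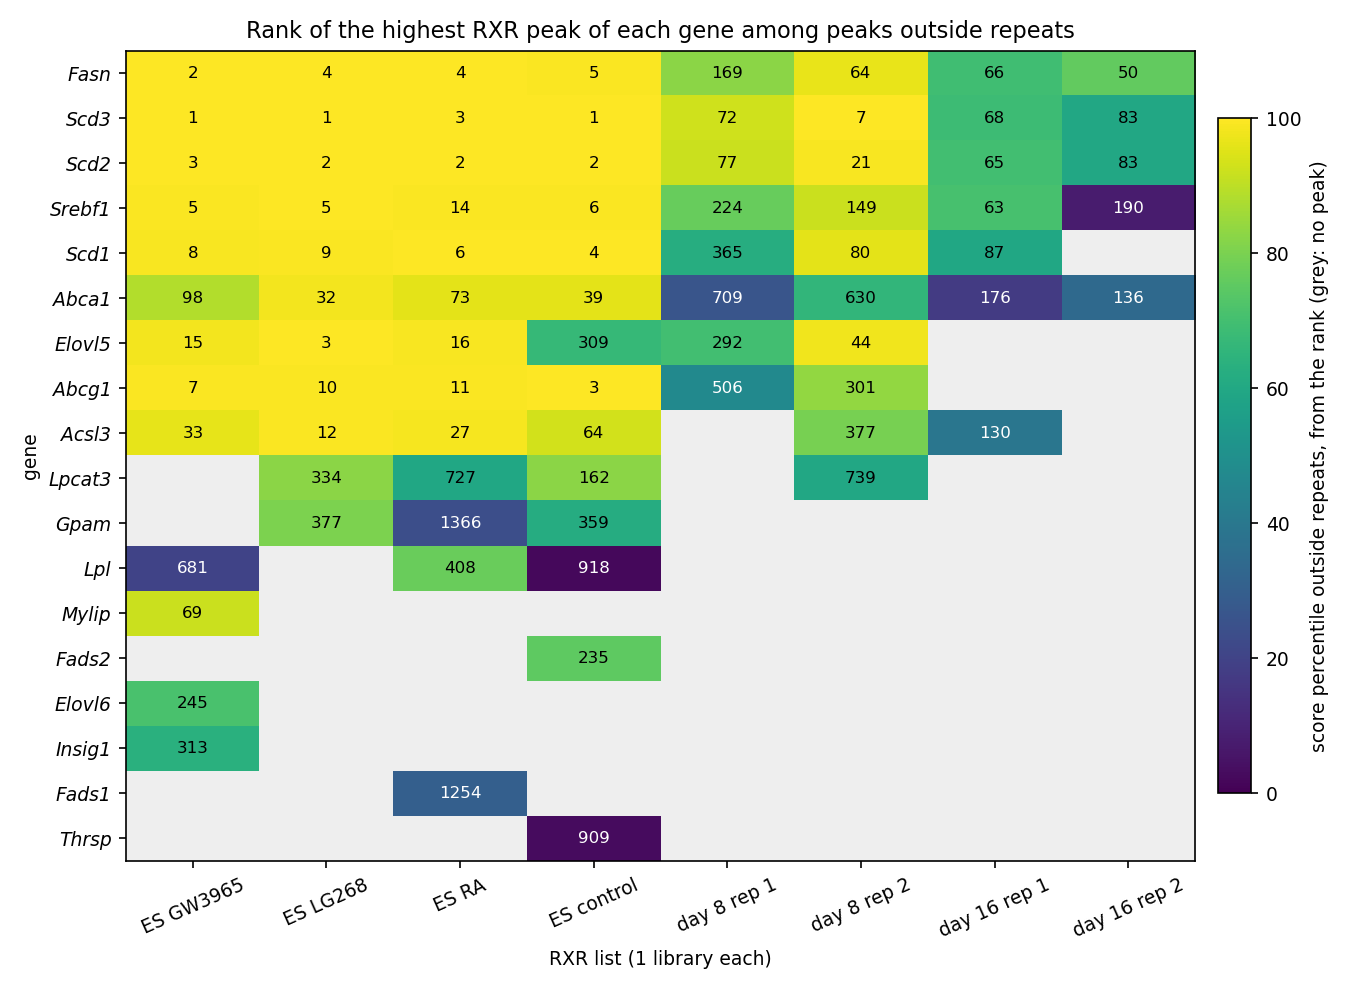
Rank of the highest RXR peak of each gene among the peaks outside repeats of its list, for the 3 Scd genes and the pathway genes with a peak in an ES list, with colour for the percentile and grey for no peak. Fasn, Srebf1 and the Scd genes fill the upper rows, with ranks between 1 and 14 in the 4 ES lists. Abcg1 stands below them, with ranks between 3 and 11 in those lists.

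Few other RXR peaks lay around the cluster, and no share over other stretches of the genome was computed, so this has no background. Within 200 kb of a Scd site the one other RXR region was named for Mir5114, a microRNA gene inside the Scd2 gene, 11356 to 11427 bp past that gene's start and between Scd2 and Scd4. It was called with LG268, RA and in day 8 replicate 2. The neighbouring genes Erlin1, Chuk, Cwf19l1, Bloc1s2a, Ndufb8 and Hif1an had H3K27ac peaks and no RXR peak.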

How the data were processed

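The deposited peak lists were analysed as given, 1 per library. Per the submitters' processing notes the tools were BWA 0.6.0, MACS2 2.0.10 and HOMER 4.2, without a stated role for each. Per the file headers peaks were annotated against mm10. The peak score is the authors' value, and its scale between lists is not stated in the sources used here. Distance to TSS (in bp), gene name and location class are also deposited values. No read totals are given, and the depth per library is therefore unknown.

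Peaks named for Scd1, Scd2 or Scd3 were merged across lists at 1 bp overlap. Scores were used as ranks, as percentiles, or over the median of the list (outside repeats for RXR). With 1 library per ES treatment no test was run. Day 16 and day 8 were compared by a two-sided exact permutation test over libraries. Where a share over all peaks, regions or genes exists, it is given beside the count. Promoter windows and gene positions are from RefSeq (GRCm38.p6). The members, gene lists and markers were chosen with earlier results of these data known. Genes were named by a rule: the members, genes of peaks within 200 kb, listed pathway genes with an ES RXR peak within 100 kb, and the 5 regions most like each site. Outside this rule, Fads3, Fads6 and Degs1 were named as desaturases without an RXR peak of their name. The regions of Elovl1, Gpam and Abca1 in the H3K27ac ratios were named after their values were seen. Gene shares use the protein-coding symbols and unique synonyms of the RefSeq table, matched to the gene names in the lists. The alternatives were other overlap rules, stricter thresholds, lists of equal length, other rank scales and each day replicate left out. Site merging was tested on simulated data, where 500 of 500 planted sites were found. Work was done in Python 3.11.15 with pandas 2.3.3, numpy 2.4.6 and matplotlib 3.10.9.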

Additional observations from a re-analysis of the deposited data

Results flagged for a closer look

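RXR signal appeared between Scd2 and Scd4 in peaks named for Mir5114, which the rule on gene names leaves out and which had no counterpart in control ES cells. The score was 7.59 with LG268 (chr19:44314500-44314696), 8.35 with RA (chr19:44314397-44314657) and 3.22 in day 8 replicate 2 (chr19:44314459-44314655). The ranks were 886 of 2089 with LG268, 771 of 1970 with RA and 1985 of 2044 in day 8 replicate 2. No RXR peak was called there with GW3965, in control cells, in day 8 replicate 1 or at day 16. H3K27ac peaks were called there with GW3965 (7.91 and 5.08), RA (5.11) and in control cells (4.82 and 3.36), and not with LG268. The region was not in any comparison above, and no test applies to 1 library per treatment.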

How the results depend on the processing

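Of 73 alternatives to 18 results, 59 left the reading as reported: a count within 1.5 times, the same direction, or the same side of the 2-fold mark. The number of RXR sites was 4 under every overlap rule and threshold tried, and 5 with all peaks within 100 kb counted. Some settings among the 59 could not have changed a count. The stricter thresholds, 2.31 for RXR and 1.43 for H3K27ac, lay below the lowest Scd scores, 2.63 and 4.0. Merging within 1 kb could not join RXR sites at least 17.2 kb apart. The 27 calls became 26 with a threshold at the control list's median score, 7.65, chosen after seeing the data. With the RXR centre required inside the H3K27ac peak, the overlap counts were 1 with GW3965, 0 with LG268, 1 with RA and 1 in control cells. Within 1 kb they were 2 with LG268 and 4 with RA. Against the control H3K27ac list they were 2 with GW3965 and 4 with LG268. The 13 H3K27ac regions became 21 with 50% reciprocal overlap and 7 with peaks within 1 kb merged. The cause was not tested. The GW3965 to control ratio at the Scd1 site was 1.98 with the peaks of the region summed, and 3.76 to 4.53 under the other settings. That at the Scd3 site was 2.71 to 3.26. At the Scd2 start the GW3965 ratio was 0.701 to 0.846, and 1.29 with the peaks summed. The RA ratio at the Scd1 site was 1.27 with the peaks summed, 1.54 by raw score, 2.25 over the median of shared regions and 2.32 with lists of equal length. The RA ratio upstream of Scd1 was 2.15 to 3.14, with no value for lists of equal length, where the control peak was lost. These ratio settings were chosen after seeing the data. The day 16 minus day 8 difference was -1.5 without replicate 1 of either day, -0.5 without replicate 2 of either day, -1.0 with the replicate block and -0.5 at the threshold of 7.65. The labels do not say that replicate numbers pair the days, and the difference between replicates had r = -0.0019 between the days over 71 RXR regions. With 1 library per ES treatment and unknown depth, an uncalled peak is not shown to be absent.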
